A study of Mus musculus with 9 samples.

Results

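The genes described here make cAMP, break it down and carry its signal to protein kinase A (PKA) and Epac. The rule names them by their known roles and uses no measured value, although the list was drawn up with earlier results of these data in view. The list held 39 genes: the luteinizing hormone receptor Lhcgr and the stimulatory G protein subunit Gnas, 6 adenylyl cyclases, 14 phosphodiesterases, 6 PKA subunits, 2 PKA inhibitor proteins, 7 A-kinase anchoring proteins and 2 Epac genes. Values were available for 35 of them, out of 19938 genes analysed on the arrays. Lhcgr, Gnas, Prkaca (a catalytic subunit of PKA) and Rapgef4 (an Epac gene) had no probe assigned to them alone and were not analysed here.

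The study used MA-10 cells, a clonal line from a mouse Leydig cell tumour that makes steroids in response to cAMP. Leydig cells are the testosterone-producing cells of the testis. There were 3 groups of 3 arrays each. One group received 10 µM forskolin together with 1 mM AICAR, one received 10 µM forskolin alone, and the control group received DMSO. The sample titles call the control untreated, while its treatment label names DMSO. All cells were kept without serum during the 1.5 h of treatment. Forskolin is a plant diterpene that activates adenylyl cyclase directly, without a receptor. AICAR enters cells and is converted to an AMP analogue that activates AMP-activated protein kinase (AMPK), an energy-sensing kinase.

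Adenylyl cyclases make cAMP from ATP, and phosphodiesterases hydrolyse it. PKA rests as a complex of regulatory and catalytic subunits. When cAMP binds the regulatory subunits, the catalytic subunits are released, phosphorylate the transcription factor CREB and other substrates, and in Leydig cells turn on Star, whose protein brings cholesterol into mitochondria for steroid synthesis. Anchoring proteins hold PKA at chosen places in the cell, PKA inhibitor proteins block free catalytic subunits, and Epac is a cAMP-activated exchange factor for the small G protein Rap.

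The values are log2 intensities that the authors deposited, 1 per probe, where a probe is a transcript cluster of a whole-transcript Affymetrix array. Array medians lay between 7.14 and 7.19. The files hold no call of which probes were above background, so whether a dim gene is expressed cannot be told; 2 of the 35 genes, Pde3b and Pkia, had a mean log2 value under 5, and 5 had one under 6. Of 6 Leydig markers 4 had values, and all 4 were lower with forskolin and AICAR than in control, none of them called. Against forskolin 2 of the 4 were called lower with AICAR, Star and the steroid dehydrogenase Hsd3b1. Hsd3b1 had mean log2 values of 8.34 with forskolin and AICAR, 8.92 with forskolin and 8.71 in control (-0.59 against forskolin, adjusted p = 0.0437). Cyp11a1, the side-chain cleavage enzyme, had mean log2 values of 11.69 with forskolin and AICAR, 11.81 with forskolin and 11.70 in control, and the steroidogenic factor Nr5a1 had 11.78 with forskolin and AICAR, 11.77 with forskolin and 11.88 in control. Each of 20 markers of other testis cells (Sertoli, germ, macrophage, endothelial, peritubular) had a probe. Their mean log2 value per array was 6.68 to 6.77 with forskolin and AICAR, 6.73 to 6.75 with forskolin and 6.70 to 6.74 in control. That mean covers unlike values, in control from 4.12 for the germ marker Dazl to 11.97 for the endothelial marker Cdh5. Levels of different probes are not compared here. None of the 20 was called with forskolin, and in both comparisons of forskolin with AICAR 2 were called lower, the Sertoli marker Sox9 and the macrophage marker Cd68, and 0 higher; their part in the results below was not tested. MA-10 is a clonal line, and the name of a marker here does not mean that cells of that type were present. Values are relative to the signal of each array, so they give neither RNA per cell nor cell numbers. Nothing in the labels says that the arrays of a group came from separate cultures, and the p-values therefore cover no more than array-to-array spread, which may be technical.

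Forskolin alone moved the mRNA of these genes little in 1.5 h. None of the 35 was called against control, where a call is a Benjamini-Hochberg adjusted p under 0.05 in limma over all genes; over all genes 0.692% were called. At an unadjusted p under 0.05 there were 3, Prkar2b, Rapgef3 and Akap11, all higher, beside 7.27% of all genes. Differences (forskolin minus control) ran from -0.09 to 0.26 on the log2 scale, with 20 above and 15 below 0. Their median was 0.02, beside 0.0034 for all genes, and their median size was 0.05, beside 0.04 for all genes. For 32 of the 35 the 95% confidence interval lay within a 1.2-fold change either way, and for all 35 within 1.5-fold. Of all 19938 genes, 16608 and 19842 had intervals within these bounds. The outermost bound was a 1.33-fold increase, of Prkar2b. In 4 genes the 3 forskolin arrays did not overlap the 3 control arrays, Prkar2b, Pde1b and Akap11 lying higher and Adcy3 lower, against 14% of all genes without overlap. These counts are near the background shares.

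With AICAR added to forskolin, 2 of the 35 genes were called against forskolin alone, both lower: Prkar2b, a regulatory subunit of PKA, and Akap1, which anchors PKA at mitochondria. Over all genes 5.1% were called, 4.12% lower, so the count is near the background. Those calls split into 195 higher and 822 lower, but 454 and 638 after quantile normalization and 359 and 655 after median centring. At an unadjusted p under 0.05 there were 6 genes, beside 24.1% of all genes. Differences (forskolin with AICAR minus forskolin) ran from -0.35 to 0.15, with 22 above and 13 below 0. Their median was 0.01, beside 0.02 for all genes, and their median size was 0.06, beside 0.08 for all genes. The 95% confidence interval lay within 1.2-fold for 27 of the 35 and within 1.5-fold for all 35, beside 13314 and 19468 of all 19938 genes. In 9 genes the groups did not overlap, 7 higher and 2 lower with AICAR, against 23.6% of all genes.

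In forskolin with AICAR against control, 1 of the 35 was called, Akap1, which fell. Over all genes 8.72% were called and 5.68% were called lower, so a single call is no more than the background. At an unadjusted p under 0.05 there were 11 genes, beside 31.1% of all genes. Differences (forskolin with AICAR minus control) ran from -0.23 to 0.22, again with 22 above and 13 below 0. Their median was 0.03, beside 0.02 for all genes, and their median size was 0.08, beside 0.09 for all genes. The interval lay within 1.2-fold for 27 and within 1.5-fold for 35, beside 12442 and 19421 of all 19938 genes. In 8 genes the groups did not overlap, 5 higher and 3 lower, against 29.5% of all genes.

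**Figure D1:**
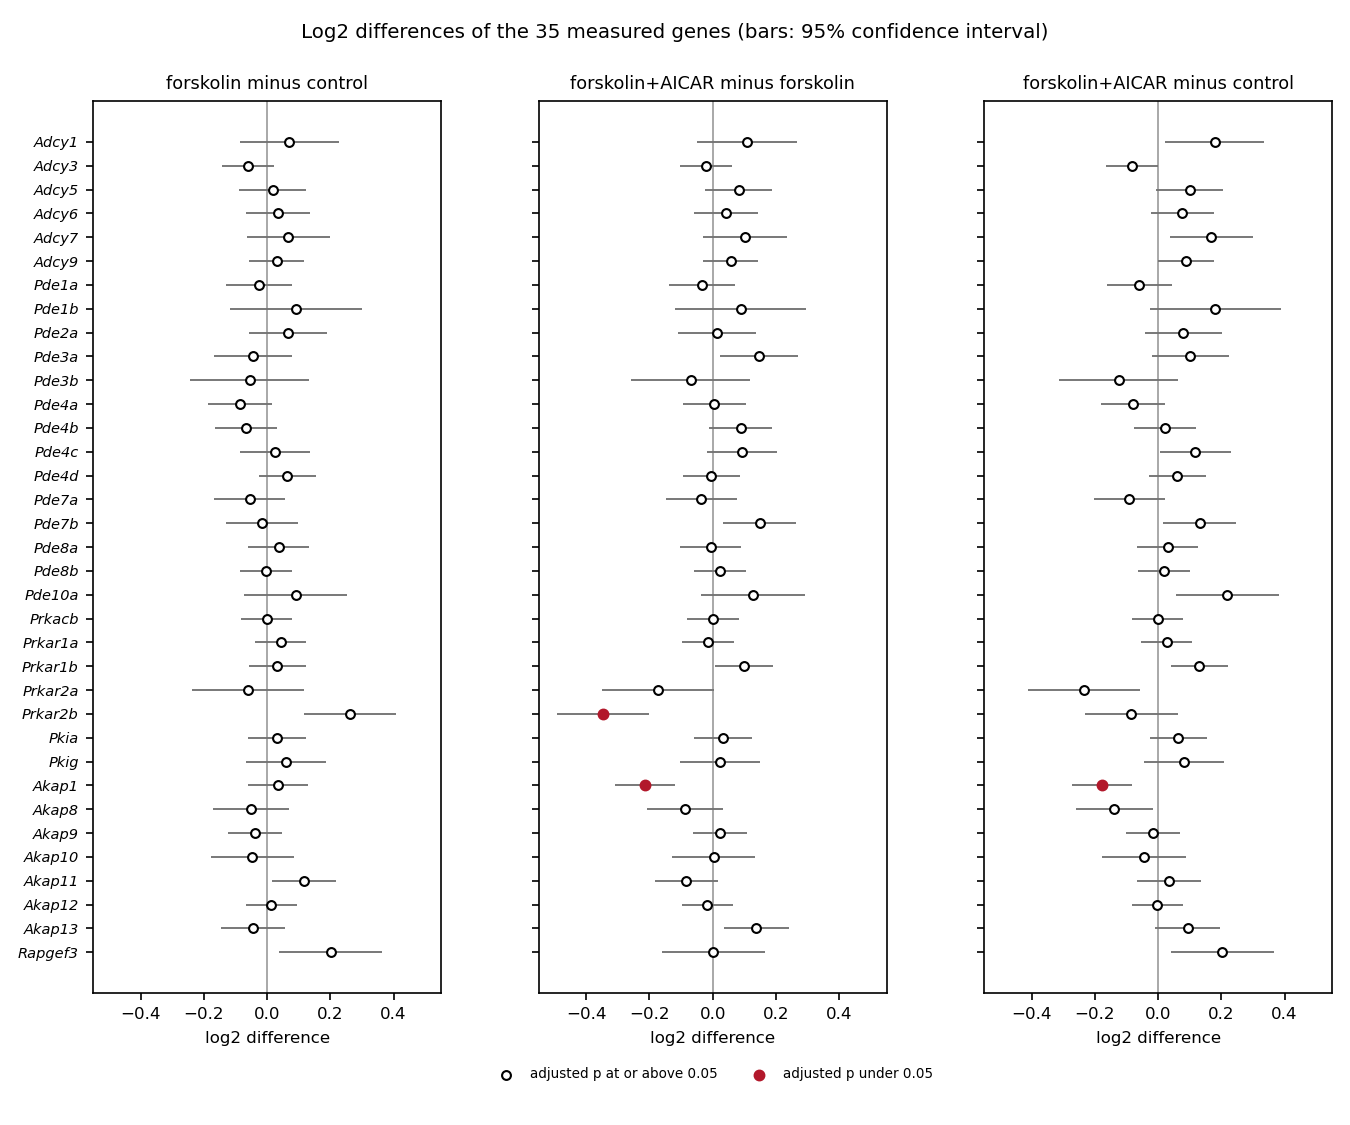
Log2 differences of the 35 measured genes in the 3 comparisons, with 95% confidence intervals from limma; the panels run forskolin minus control, forskolin with AICAR minus forskolin, and forskolin with AICAR minus control. Filled points are the calls: 0 in the left panel, Prkar2b and Akap1 in the middle one, and Akap1 in the right one.

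Among the adenylyl cyclases none of the 6 was called in any comparison. Adcy7, a cyclase stimulated by G protein beta-gamma subunits, had log2 values of 7.24, 7.28 and 7.33 with forskolin and AICAR, against 7.19, 7.19 and 7.16 with forskolin and 7.18, 7.19 and 6.97 in control. The 3 arrays with AICAR lay above the other 6, and 1 control array lay well below the rest. Its difference from control was 0.17 (SE 0.06, adjusted p = 0.0982). Adcy1, the calmodulin-stimulated cyclase best known from neurons, had 6.72, 6.87 and 6.96 with forskolin and AICAR, 6.81, 6.79 and 6.63 with forskolin, and 6.74, 6.68 and 6.61 in control. These groups overlapped, and the difference of forskolin with AICAR from control was 0.18 (SE 0.07, adjusted p = 0.124). With single arrays left out this difference ran from 0.13 to 0.24 (adjusted p 0.0307 to 0.332). Of those fits, only that without replicate 1 of forskolin with AICAR gave a call. With arrays weighted by their spread in limma it was called too (0.19, adjusted p = 0.0186), as were 6619 of all genes.

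Adcy3, known as the olfactory cyclase, ran the other way, with 8.86, 8.89 and 8.94 with forskolin and AICAR, 8.88, 8.94 and 8.94 with forskolin, and 8.98, 8.99 and 8.96 in control. Both treated groups lay below every control array. The difference of forskolin from control was -0.06 (SE 0.04, adjusted p = 0.836). Adcy5 and Adcy6, which calcium inhibits, and Adcy9, which forskolin activates poorly, differed from control by 0.02 to 0.03 with forskolin. With AICAR as well, they differed from control by 0.08 to 0.10. The outermost confidence bound among the 6 cyclases with forskolin was a 1.17-fold increase, of Adcy1.

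None of the 14 phosphodiesterases was called in any comparison. With forskolin 6 lay above and 8 below control, and no confidence bound went past a 1.23-fold increase. The cAMP-specific PDE4 enzymes hydrolyse much of the cAMP of many cells, and short forms of PDE4D and PDE4B are known cAMP-induced transcripts in other cells. Pde4d had log2 values of 6.42, 6.43 and 6.42 with forskolin and AICAR, 6.46, 6.41 and 6.42 with forskolin, and 6.37, 6.42 and 6.30 in control. The groups overlapped, and the difference of forskolin from control was 0.06 (SE 0.04, adjusted p = 0.841). The other 2 Pde4d probes gave -0.04 and 0.03. A value for a whole transcript cluster does not tell short from long forms.

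Pde4b, the other such gene, had 5.67, 5.68 and 5.78 with forskolin and AICAR, 5.67, 5.62 and 5.58 with forskolin, and 5.73, 5.67 and 5.67 in control. Its difference of forskolin from control was -0.07 (SE 0.04, adjusted p = 0.855). The arrays with AICAR lay above the forskolin arrays, by 0.09 (SE 0.04, adjusted p = 0.248). Pde4a had 8.08, 8.13 and 8.08 with forskolin and AICAR, 8.02, 8.11 and 8.13 with forskolin, and 8.13, 8.24 and 8.15 in control. The forskolin difference of Pde4a from control was -0.09 (SE 0.04, adjusted p = 0.78), the lowest difference among the 35 genes in that comparison. Pde4c had 7.31, 7.43 and 7.36 with forskolin and AICAR, 7.30, 7.23 and 7.29 with forskolin, and 7.32, 7.26 and 7.17 in control. It lay above the forskolin arrays by 0.09 with AICAR (SE 0.05, adjusted p = 0.271), without overlap.

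Pde7b, a cAMP-specific enzyme outside the PDE4 family, had 5.59, 5.70 and 5.61 with forskolin and AICAR, 5.52, 5.44 and 5.49 with forskolin, and 5.52, 5.41 and 5.57 in control. All 3 arrays with AICAR lay above the other 6. The difference was 0.15 from forskolin (SE 0.05, adjusted p = 0.13) and 0.13 from control (SE 0.05, adjusted p = 0.122). Pde10a, which hydrolyses cAMP and cGMP, had 6.54, 6.78 and 6.68 with forskolin and AICAR, 6.54 on each forskolin array, and 6.58, 6.44 and 6.33 in control. Its groups overlapped, with differences of 0.09 for forskolin from control (SE 0.07, adjusted p = 0.902) and 0.22 for forskolin with AICAR from control (SE 0.07, adjusted p = 0.0871). Pde3a, which cGMP inhibits, had 5.86, 5.94 and 6.08 with forskolin and AICAR, 5.80, 5.78 and 5.86 with forskolin, and 5.86 on each control array. With AICAR it differed from forskolin by 0.15 (SE 0.05, adjusted p = 0.151).

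Leaving out replicate 1 of forskolin with AICAR gave 3324 calls over all genes against forskolin, in place of 1017, and 4741 against control, in place of 1739. Among the phosphodiesterases it added Pde3a against forskolin (0.20, adjusted p = 0.0316), and Pde10a (0.28, adjusted p = 0.023) and the calmodulin-dependent Pde1b (0.30, adjusted p = 0.0137) against control. Other arrays moved these values down: Pde3a was 0.09 without replicate 3 of forskolin with AICAR (adjusted p = 0.33), and Pde10a was 0.16 without control replicate 3 (adjusted p = 0.27). With all arrays, Pde1b differed from control by 0.18 (adjusted p = 0.21), and its log2 values with AICAR spread from 6.41 to 6.83. The remaining enzymes were Pde1a, Pde2a, Pde3b, Pde7a, Pde8a and Pde8b. Their differences lay between -0.06 and 0.07 for forskolin against control, between -0.07 and 0.02 for forskolin with AICAR against forskolin, and between -0.13 and 0.08 for forskolin with AICAR against control. PDE8A and PDE8B are known to restrain steroid output of mouse Leydig cells. Pde8a differed from control by 0.04 with forskolin and by 0.03 with forskolin and AICAR, and Pde8b by -0.0042 and 0.02.

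**Figure D2:**
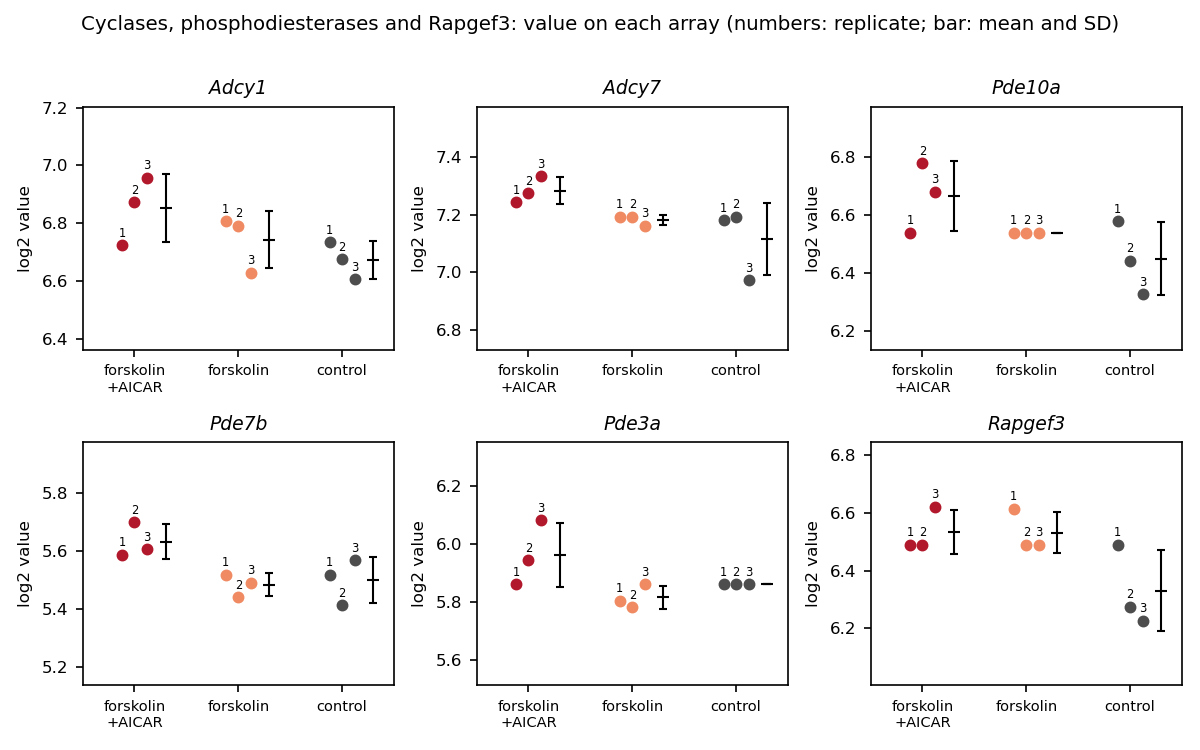
Log2 value on every array (numbers give the replicate) for 2 cyclase genes, 3 phosphodiesterase genes and Rapgef3, with the mean and SD of each group of 3 arrays; the groups run forskolin with AICAR, forskolin and control, and each panel spans the same log2 range. Adcy7 and Pde7b lay higher on the 3 arrays with AICAR than on the other 6, while the groups of Adcy1, Pde10a, Pde3a and Rapgef3 overlapped.

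The PKA subunits held the largest difference among the 35 genes. Prkar2b encodes the regulatory subunit RII-beta, which binds anchoring proteins and holds the catalytic subunits inactive. Its log2 values were 10.39, 10.30 and 10.12 with forskolin and AICAR, 10.67, 10.59 and 10.59 with forskolin, and 10.29, 10.38 and 10.39 in control. The mean was 10.27 ± 0.13 with forskolin and AICAR, 10.62 ± 0.05 with forskolin and 10.35 ± 0.05 in control (SD, n = 3 each). All 3 forskolin arrays lay above all arrays of both other groups, whose ranges overlapped each other. Prkar2b fell with AICAR added to forskolin, by 0.35 on the log2 scale (SE 0.06, 95% interval -0.49 to -0.20, adjusted p = 0.0158 in limma), which is 1.27-fold lower. The difference of forskolin from control was 0.26 (SE 0.06, 95% interval 0.12 to 0.41, adjusted p = 0.185), and that of forskolin with AICAR from control -0.08 (SE 0.06, adjusted p = 0.385). The first 2 of these differences share the forskolin arrays. The call against forskolin was lost without forskolin replicate 1 (adjusted p = 0.0637) or 3 (0.0543), without replicate 2 of forskolin with AICAR (0.0528), and in a fit of the 2 groups alone (0.0617). With array weights, which limma estimates from each array's deviations from its group, Prkar2b was also called in forskolin against control (0.25, adjusted p = 0.015). Calls over all genes were then 436, in place of 138.

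Prkar2a, which encodes the related subunit RII-alpha, had 9.40, 9.20 and 9.11 with forskolin and AICAR, 9.40, 9.41 and 9.42 with forskolin, and 9.36, 9.45 and 9.60 in control. On 2 of the 3 arrays with AICAR it lay below every other array, and on the other it did not. The difference was -0.17 from forskolin (SE 0.08, adjusted p = 0.214) and -0.23 from control (SE 0.08, adjusted p = 0.0893). Without replicate 1 of forskolin with AICAR it was called in both comparisons (-0.26, adjusted p = 0.0376, and -0.32, adjusted p = 0.0147). Without replicate 3 of that group it was -0.11 from forskolin (adjusted p = 0.498) and -0.17 from control (adjusted p = 0.241). Prkar1b, a type I regulatory subunit known mainly from the nervous system, had 7.82, 7.84 and 7.79 with forskolin and AICAR, 7.69, 7.70 and 7.76 with forskolin, and 7.63, 7.72 and 7.71 in control. All arrays with AICAR lay above the other 6. The difference was 0.10 from forskolin (SE 0.04, adjusted p = 0.179) and 0.13 from control (SE 0.04, adjusted p = 0.0737). After quantile normalization it was called in both (0.17, adjusted p = 0.0428, and 0.18, adjusted p = 0.0255).

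Prkar1a, the type I regulatory subunit that most cells make, and Prkacb, a catalytic subunit, stayed within narrow bounds. Prkar1a had 11.987, 11.981 and 11.995 with forskolin and AICAR, 11.985, 11.993 and 12.032 with forskolin, and 11.913, 11.973 and 11.998 in control. Its difference from control was 0.04 with forskolin (95% interval -0.04 to 0.12). Prkacb differed by -0.0019 between forskolin and control (95% interval -0.08 to 0.08). The inhibitor proteins Pkia and Pkig differed from control by 0.03 and 0.06 with forskolin, and by 0.06 and 0.08 with forskolin and AICAR. Neither inhibitor was called in any comparison.

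Akap1 anchors PKA at the outer mitochondrial membrane, and its protein has been studied in MA-10 cells beside the Star protein. Its log2 values were 9.87, 9.82 and 9.95 with forskolin and AICAR, 10.08, 10.06 and 10.13 with forskolin, and 10.05, 10.07 and 10.05 in control. The mean was 9.88 ± 0.07 with forskolin and AICAR, 10.09 ± 0.03 with forskolin and 10.06 ± 0.01 in control (SD, n = 3 each). All 3 arrays with AICAR lay below all 6 others, and the ranges of forskolin and control overlapped. Akap1 fell by 0.21 on the log2 scale against forskolin (SE 0.04, 95% interval -0.31 to -0.12, adjusted p = 0.0213 in limma) and by 0.18 against control (SE 0.04, 95% interval -0.27 to -0.08, adjusted p = 0.0343), which are 1.16-fold and 1.13-fold lower. These comparisons share the arrays with AICAR. Forskolin alone differed from control by 0.03 (95% interval -0.06 to 0.13).

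Akap1 was lower with AICAR under every alternative tried, but its calls were not held by all of them. The call against forskolin was lost without forskolin replicate 1 (adjusted p = 0.0631), 2 (0.0547) or 3 (0.0837), without replicate 2 of forskolin with AICAR (0.0769), and in a fit of the 2 groups alone (0.0812). The call against control was lost without control replicate 1 (0.0735), 2 (0.0997) or 3 (0.101), without forskolin replicate 1 (0.058) or 2 (0.059), without replicate 2 of forskolin with AICAR (0.114), in a fit of the 2 groups (0.083), and after quantile normalization (0.0875). It was kept without forskolin replicate 3 (0.0415) and without replicate 1 (0.0352) or 3 (0.017) of forskolin with AICAR.

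**Figure D3:**
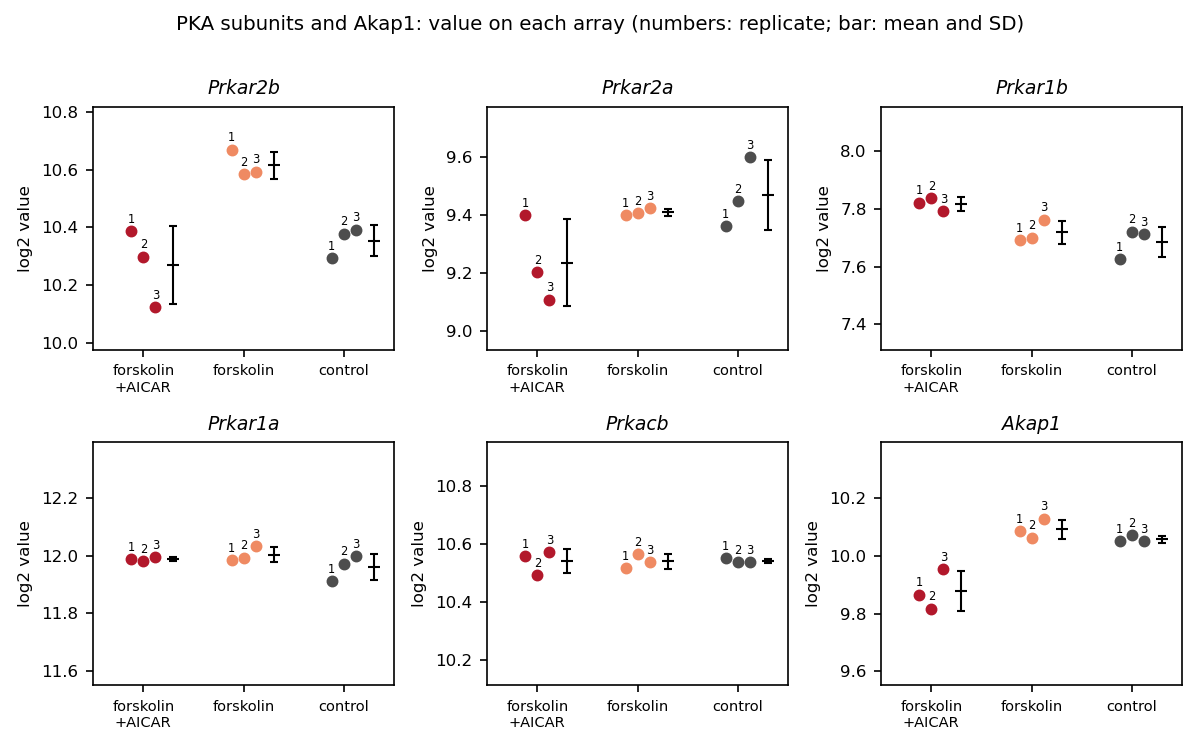
Log2 value on every array (numbers give the replicate) for the 5 PKA subunit genes and Akap1, with the mean and SD of each group of 3 arrays; the groups run forskolin with AICAR, forskolin and control, and each panel spans the same log2 range. Prkar2b lay highest on the 3 forskolin arrays, Akap1 lowest on the 3 arrays with AICAR, and Prkacb and Prkar1a varied little.

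CREB binds the sequence TGACGTCA, or its shorter side TGACG, which on the opposite strand reads CGTCA, so the promoters of these genes were searched for both. RefSeq windows from 250 bases before to 50 bases after an annotated start (mouse build GRCm38.p6) were available for 29 of the 35 genes, 68 windows in all. The full sequence stood in 2 windows, 2.94%, against 1.79% of all 32851 windows of the same length; both were Prkar1a windows holding the same site. A short side on either strand stood in 17 windows, 25.0%, of 15 genes, against 20.8% of all windows. The full sequence contains the short side on both strands, so it is counted in both. The windows shown here were picked because they belong to the genes the results turn on: the called genes Prkar2b and Akap1, Prkar1a with the full sequence, and Nr4a1, a nuclear receptor gene that rose by 2.64 on the log2 scale with forskolin (adjusted p = 2.39e-08 in limma). Capitals mark the full sequence or a short side on either strand, and each line reads 5′ to 3′ along the strand of the gene.
Prkar2b promoter, chr12:32061228-32061527, minus strand: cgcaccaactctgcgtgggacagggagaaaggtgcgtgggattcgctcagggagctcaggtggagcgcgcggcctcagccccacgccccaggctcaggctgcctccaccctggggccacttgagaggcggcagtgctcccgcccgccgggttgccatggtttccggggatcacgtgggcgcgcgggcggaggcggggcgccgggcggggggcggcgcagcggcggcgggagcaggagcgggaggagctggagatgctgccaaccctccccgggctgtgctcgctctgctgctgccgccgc
Prkar2b promoter, chr12:32060540-32060839, minus strand: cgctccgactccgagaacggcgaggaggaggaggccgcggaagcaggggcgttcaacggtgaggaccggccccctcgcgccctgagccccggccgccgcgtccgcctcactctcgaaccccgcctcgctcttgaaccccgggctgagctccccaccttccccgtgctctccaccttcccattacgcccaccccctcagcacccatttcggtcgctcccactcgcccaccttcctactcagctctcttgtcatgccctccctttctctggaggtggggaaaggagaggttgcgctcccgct
Akap1 promoter, chr11:88864537-88864836, minus strand: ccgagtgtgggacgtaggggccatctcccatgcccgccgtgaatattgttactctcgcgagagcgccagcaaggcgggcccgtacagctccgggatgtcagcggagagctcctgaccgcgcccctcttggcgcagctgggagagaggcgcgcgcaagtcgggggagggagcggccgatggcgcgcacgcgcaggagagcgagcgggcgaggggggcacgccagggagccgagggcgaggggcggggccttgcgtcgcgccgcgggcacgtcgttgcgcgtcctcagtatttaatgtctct
Akap1 promoter, chr11:88851463-88851762, minus strand: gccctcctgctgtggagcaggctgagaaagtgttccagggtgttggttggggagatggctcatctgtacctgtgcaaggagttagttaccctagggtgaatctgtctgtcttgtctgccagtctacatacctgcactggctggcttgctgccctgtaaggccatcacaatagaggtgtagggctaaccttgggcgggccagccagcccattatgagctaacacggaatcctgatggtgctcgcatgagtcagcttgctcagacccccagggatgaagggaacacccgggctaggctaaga
Prkar1a promoter, chr11:109650699-109650998, plus strand: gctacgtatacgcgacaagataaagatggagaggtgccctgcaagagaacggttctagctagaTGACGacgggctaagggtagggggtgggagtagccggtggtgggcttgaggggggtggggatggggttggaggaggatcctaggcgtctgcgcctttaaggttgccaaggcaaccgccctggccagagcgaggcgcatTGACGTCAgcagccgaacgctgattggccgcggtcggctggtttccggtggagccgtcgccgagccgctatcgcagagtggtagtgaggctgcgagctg
Nr4a1 promoter, chr15:101266596-101266895, plus strand: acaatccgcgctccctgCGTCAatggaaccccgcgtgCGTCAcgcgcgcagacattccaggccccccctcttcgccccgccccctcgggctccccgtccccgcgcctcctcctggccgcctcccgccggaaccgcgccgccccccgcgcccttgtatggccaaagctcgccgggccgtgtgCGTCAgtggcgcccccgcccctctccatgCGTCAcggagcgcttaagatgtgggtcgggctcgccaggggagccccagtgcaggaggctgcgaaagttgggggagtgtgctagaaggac

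The windows of Prkar2b and Akap1 held neither form. The Prkar1a window held the full sequence starting 49 bases before the start, and a short side 187 bases before it. Nr4a1 held 4 short sides, 233, 213, 69 and 40 bases before the start. A match is a description of these letters, and no binding was measured.

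Of the other anchoring proteins, Akap13 had 9.024, 9.001 and 8.949 with forskolin and AICAR, 8.798, 8.879 and 8.883 with forskolin, and 8.972, 8.856 and 8.866 in control. It lay above forskolin by 0.14 with AICAR (SE 0.05, adjusted p = 0.119), without overlap, and after quantile normalization it was called (0.20, adjusted p = 0.0326). Akap11, which binds PKA and glycogen synthase kinase 3, had 9.90, 9.83 and 9.95 with forskolin and AICAR, 9.98, 9.93 and 10.02 with forskolin, and 9.90, 9.86 and 9.81 in control. Its forskolin arrays lay above the control arrays, by 0.12 (SE 0.04, adjusted p = 0.562), and the difference with AICAR from forskolin was -0.08 (SE 0.04, adjusted p = 0.276). The other 2 probes of Akap11 gave 0.10 and 0.05 for forskolin minus control and -0.18 and -0.11 for forskolin with AICAR minus forskolin, with the same signs.

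Akap8, a nuclear anchoring protein, had 11.01, 10.87 and 10.81 with forskolin and AICAR, 10.94, 10.98 and 11.03 with forskolin, and 11.08, 11.01 and 11.02 in control. The arrays with AICAR lay just below control, with a difference of -0.14 (SE 0.05, adjusted p = 0.122). It ran from -0.19 to -0.10 with single arrays left out (adjusted p 0.0203 to 0.305). Of those fits, only that without replicate 1 of forskolin with AICAR gave a call. With array weights in limma Akap8 was called too (-0.15, adjusted p = 0.0163), as were 6619 of all genes. Akap9, Akap10 and Akap12, which anchor PKA at the Golgi and centrosome, at mitochondria and at the plasma membrane, differed by -0.05 to 0.02 in the 3 comparisons. Rapgef3 encodes Epac1, the route of cAMP signalling that bypasses PKA. It had 6.49, 6.49 and 6.62 with forskolin and AICAR, 6.61, 6.49 and 6.49 with forskolin, and 6.49, 6.28 and 6.23 in control. Both treated groups were higher than 2 of the 3 control arrays and equal to or above the other. Rapgef3 differed from control by 0.20 with forskolin (SE 0.07, adjusted p = 0.509) and by 0.20 with forskolin and AICAR (SE 0.07, adjusted p = 0.102). With single arrays left out the second difference ran from 0.15 to 0.28 (adjusted p 0.0374 to 0.305), and it was called only without control replicate 1.

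CREB factors and cAMP-regulated genes were measured on the same arrays. Of 18 such genes, 7 rose with forskolin: Nr4a1 by 2.64, as above, Sik1 (a kinase that restrains CREB coactivators) by 2.60, Nr4a3 by 2.34, Star by 1.89, Fosb by 1.15, the clock gene Per1 by 0.84 and Fos by 0.74, with adjusted p from 2.39e-08 to 0.00387 in limma. Nr4a1 had 12.51, 12.50 and 12.60 with forskolin and AICAR, 12.98, 13.00 and 13.02 with forskolin, and 10.24, 10.44 and 10.40 in control. These 7 were picked by their calls in this comparison, so their sizes do not describe the list. Over all 18 genes the median difference was 0.06, with a range of -0.12 to 2.64. The largest difference of the 35 genes in the same comparison was 0.26, for Prkar2b. With AICAR added, Star fell by 2.05 (adjusted p = 5.21e-07), Nr4a3 by 1.02 (7.82e-05) and Nr4a1 by 0.46 (0.00169) against forskolin, and Fos rose by 1.25 (0.000104). Against control, Sik1 (2.57), Nr4a1 (2.18), Fos (1.99), Nr4a3 (1.32), Fosb (0.97) and Per1 (0.55) rose with forskolin and AICAR. Without replicate 3 of every group, the calls of Per1 (adjusted p = 0.0971 in limma) and Fos (0.053) in forskolin against control were lost. So were those of Nr4a1 against forskolin (0.0507) and Per1 against control (0.0621) for forskolin with AICAR. Star had log2 values of 8.47, 8.38 and 8.40 with forskolin and AICAR, 10.55, 10.33 and 10.52 with forskolin, and 8.57, 8.61 and 8.56 in control.

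**Figure D4:**
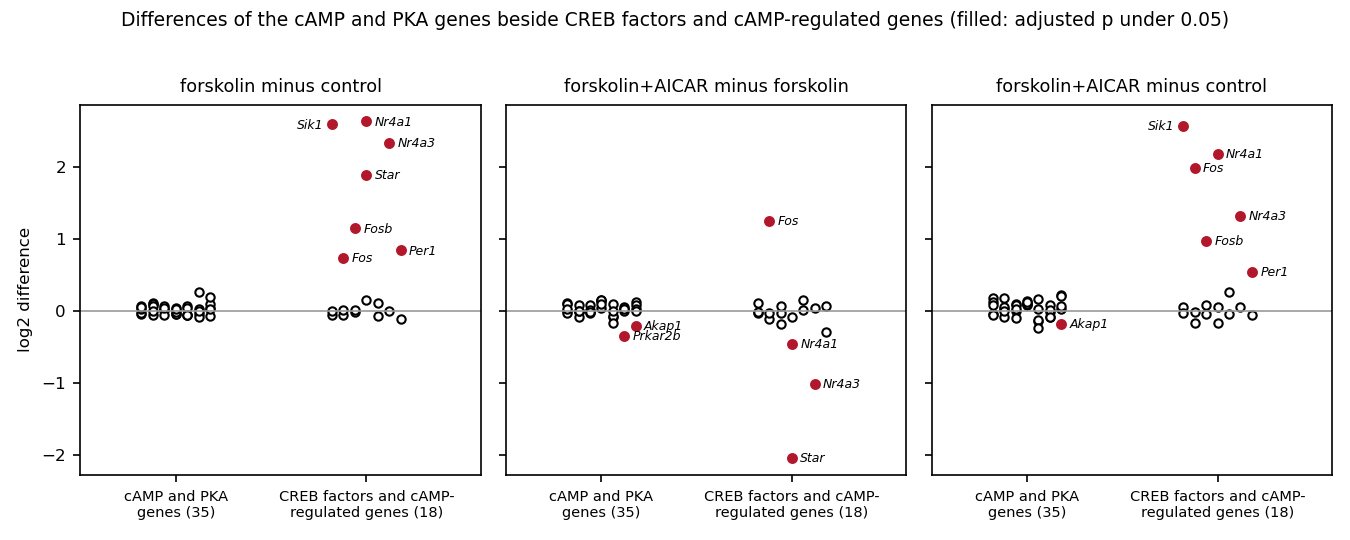
Log2 differences in the 3 comparisons for the 35 cAMP and PKA genes (left of each panel) and 18 CREB factors and cAMP-regulated genes (right of each panel); filled points have an adjusted p under 0.05 in limma. With forskolin the first set stayed between -0.09 and 0.26. In the second, the 7 called genes rose by 0.74 to 2.64, and the median of all 18 was 0.06.

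The rest of the pathway was read from further lists of cAMP genes. With the CREB list they held 85 measured genes, of which 8 were called with forskolin against control, beside 0.692% of all genes. For forskolin with AICAR 7 were called against forskolin, beside 5.1% of all genes, and 8 against control, beside 8.72%. Pooled over the 85 genes these counts are close to the background shares, but the calls were unevenly spread. The CREB list, with 18 of the 85 genes, held 4 of the 7 and 6 of the 8. Those 8 were 7 higher and 1 lower, beside 606 higher and 1133 lower of all genes. Outside the CREB list, forskolin raised only Arrdc3, an arrestin-like gene that acts on beta-adrenergic receptors and was 1 of 9 desensitisation genes. Its log2 values were 9.46, 9.38 and 9.53 with forskolin and AICAR, 9.72, 9.73 and 9.89 with forskolin, and 9.01, 9.22 and 9.31 in control, and it rose by 0.60 with forskolin (SE 0.08, adjusted p = 0.00893). That call was lost without replicate 3 of every group (0.0892). With AICAR Arrdc3 differed by -0.32 from forskolin (adjusted p = 0.0527) and by 0.28 from control (adjusted p = 0.0636). The first of these was called without control replicate 1 (0.0291) or 3 (0.0481), without replicate 1 of forskolin with AICAR (0.0499), and with either filter on dim genes (0.0481 and 0.0411), the trended and robust prior (0.0288) or array weights (0.00465). The second was called after quantile normalization (0.0304) and with that prior (0.0436) or array weights (0.0297).

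Arfgef2 encodes an exchange factor for Arf proteins that also binds PKA, and was the only call among 16 further PKA, inhibitor and anchoring genes. It had 10.69, 10.72 and 10.71 with forskolin and AICAR, 10.86, 10.89 and 10.90 with forskolin, and 10.82 on each control array. It fell by 0.18 with AICAR against forskolin (SE 0.03, adjusted p = 0.0137). That SE draws on the spread of all groups, the equal control values among them. The Arfgef2 call was lost without forskolin replicate 2 (0.0603) or 3 (0.0519), without replicate 3 of every group (0.102), and in a fit of the 2 groups (0.0583). Against control it differed by -0.11 (adjusted p = 0.0636), and was called with a filter at a mean log2 value of 6 (0.045), the trended and robust prior (0.0197) or array weights (0.0174).

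Of 10 receptors measured, the estrogen-responsive receptor Gper1 was the only call, with 7.40, 7.34 and 7.27 with forskolin and AICAR, 7.61, 7.61 and 7.89 with forskolin, and 7.58, 7.78 and 7.60 in control. Gper1 fell by 0.37 against forskolin (SE 0.08, adjusted p = 0.0354) and by 0.32 against control (SE 0.08, adjusted p = 0.0444). Both calls were lost without any 1 of control replicate 1 or 3, forskolin replicate 1 or 2, or replicate 2 or 3 of forskolin with AICAR (adjusted p 0.0537 to 0.128). The first was also lost without forskolin replicate 3 (0.0857), and in a fit of the 2 groups (0.0811), and the second without control replicate 2 (0.124) and after quantile normalization (0.0524).

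Among 12 further effectors, Rapgef2, an exchange factor for Rap, rose by 0.23 against forskolin (SE 0.05, adjusted p = 0.0303), and Cnga1, a cyclic nucleotide-gated channel subunit, rose by 0.19 against control (SE 0.04, adjusted p = 0.0206). Rapgef2 had 9.77, 9.75 and 9.75 with forskolin and AICAR, 9.42, 9.53 and 9.63 with forskolin, and 9.61, 9.62 and 9.62 in control. Leaving out any array but forskolin replicate 3 or replicate 1 of forskolin with AICAR ended the Rapgef2 call (adjusted p 0.0512 to 0.0942), as did a fit of the 2 groups (0.104). Cnga1 had 5.11, 5.16 and 5.18 with forskolin and AICAR, 5.04, 5.04 and 5.03 with forskolin, and 4.92, 4.96 and 5.02 in control. Of all genes with a mean log2 value below 7.48, 82.8% lay higher with forskolin and AICAR than in control. The Cnga1 call was lost without control replicate 1 (0.0639) or 2 (0.0709), without replicate 2 (0.071) or 3 (0.0519) of forskolin with AICAR, and in a fit of the 2 groups (0.0671).

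None of the 12 other cyclase and G protein alpha genes, 6 other phosphodiesterases and 2 cAMP exporters was called in any comparison. The smallest p-values in those lists belonged with forskolin against control to the G protein gene Gnaz (0.10, adjusted p = 0.77), the calmodulin-dependent Pde1c (0.07, 0.79) and the exporter Abcc4 (0.09, 0.77). For forskolin with AICAR against forskolin they belonged to Adcy4 (0.26, adjusted p = 0.074), the cGMP-specific Pde5a (-0.20, 0.0561) and Abcc4 (-0.12, 0.171), and against control to Gnaz (0.17, 0.0754), Pde1c (0.09, 0.123) and Abcc4 (-0.03, 0.713). Pde5a was called without replicate 1 of forskolin with AICAR (-0.25, adjusted p = 0.0097), with a filter at a mean log2 value of 6 (0.0414), the trended and robust prior (0.0256) or array weights (0.00253). Of the lists with no call for forskolin against control, the anchoring protein Akap5 (0.16, adjusted p = 0.448), the peptide receptor Vipr2 (0.14, 0.833) and Cnga1 (0.07, 0.784) had the smallest p-values of theirs.

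The dimmer members moved with the dim genes of the whole array. Of 17 members with a mean log2 value below 7.48, the median of all genes, 14 lay higher with forskolin and AICAR than in control (82.4%), and of all genes below that value 82.8% did. Against forskolin it was 13 of 17 (76.5%), beside 78.8% of all such genes, and for forskolin against control 11 of 17 (64.7%), beside 63.7%. After quantile normalization or median centring of the arrays the last count was 9 of 17, while the other two stayed between 12 and 14. Among these 17, replicate 1 was the lowest of the 3 arrays with AICAR in 12, and control replicate 3 the lowest of its group in 11. Over all genes below the median those shares were 60% and 51.9%. Of the 18 brighter members, 8 lay higher and 10 lower with forskolin and AICAR than in control (44.4% higher), beside 34.2% higher of all genes at or above the median. The cause of this pattern was not tested.

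**Figure D5:**
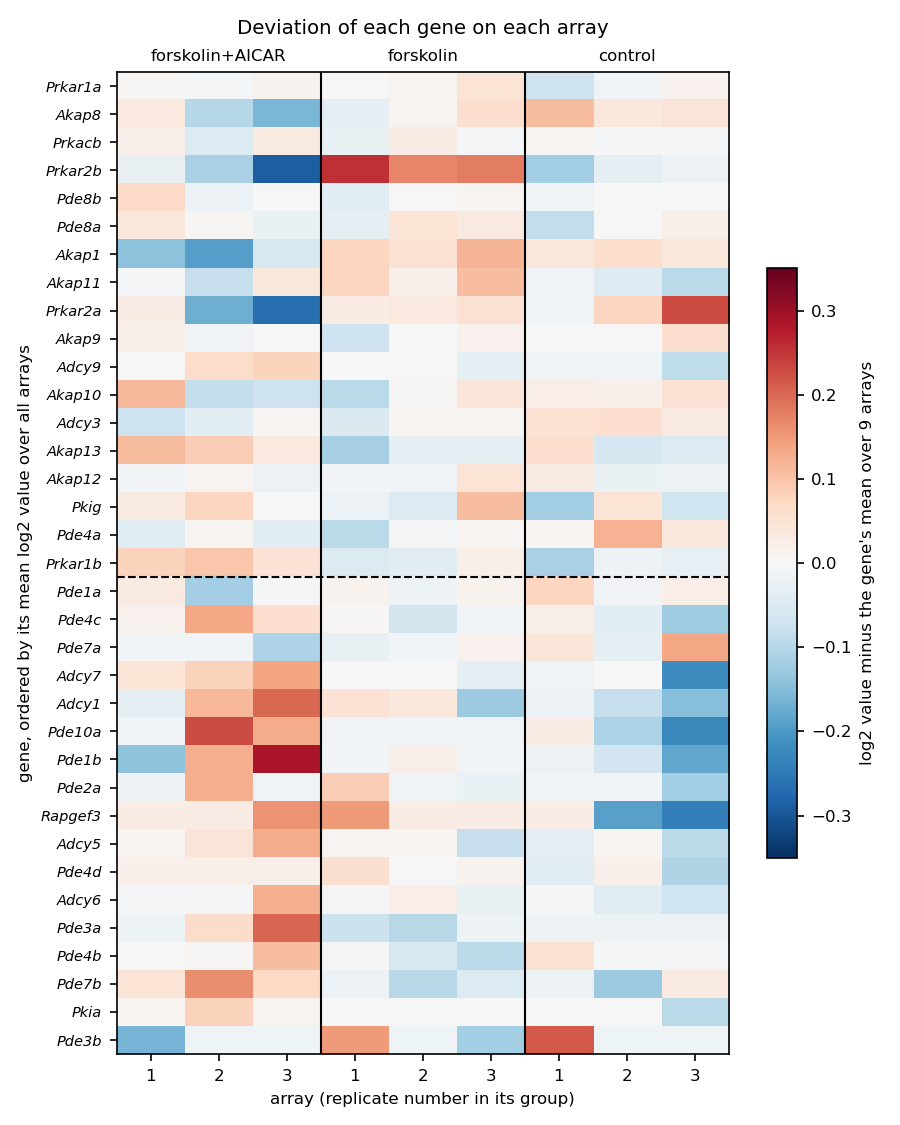
Deviation of each of the 35 genes on each of the 9 arrays from the gene's mean log2 value, with genes ordered by that mean and the dashed line at the median of all genes (7.48). Below the line, 14 of 17 genes lie higher with forskolin and AICAR than in control; Prkar2b on the forskolin arrays and Akap1 on the arrays with AICAR stand out above it.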

How the data were processed

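The deposited values of 9 arrays were used, 3 per group, on a log2 scale with 1 value per probe (a transcript cluster). Per the submitters' processing notes the authors used RMA and Partek; versions and settings are not given in the sources used here. No genome build is named, and promoter coordinates come from the RefSeq tables of GRCm38.p6.

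Of 35557 probes 21789 carried 1 gene symbol and were used, the brightest per gene on average over all arrays, which gave 19938 genes. The symbols of all 35 measured members matched their Entrez identifiers in RefSeq. No filter on dim probes was applied. One linear model of all 9 arrays was fitted in limma 3.58.1 (R 4.3.3), with moderated two-sided tests and Benjamini-Hochberg adjustment over all genes. The model was tested on simulated data. The 95% interval reached 0.08 to 0.21 either side of a member's log2 difference (median 0.10), and the number of arrays limits that precision. Members called in any comparison, and the 8 others with the smallest p in each, are described with all values. Of the further cAMP lists, called genes and the gene with the smallest p in a list without calls are named. Members and lists were chosen with earlier results of these data known. Alternatives were 2 filters on dim probes, quantile normalization, median centring, a trended and robust prior, array weights, the mean of all probes of a gene, a fit of 2 groups, the replicate number as a block, an adjusted p under 0.1, and each array left out. Leaving out replicate 3 of every group was added after seeing the data. Figures were drawn with matplotlib 3.10.9 in Python 3.11.15, with pandas 2.3.3.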

Additional observations from a re-analysis of the deposited data

How the results depend on the processing

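For the 35 genes, the count called with forskolin against control stayed at 0 except with array weights, which gave 1 (Prkar2b). For forskolin with AICAR against forskolin the count of 2 became 4 after quantile normalization, 9 with array weights, 0 in a fit of the 2 groups and 0 without replicate 3 of every group; with single arrays left out it ranged from 0 to 4. Against control the count of 1 became 9 with array weights, 0 in a fit of the 2 groups, 5 at an adjusted p under 0.1 and 0 without replicate 3 of every group, and 0 to 6 with single arrays left out. After quantile normalization it stayed at 1, but the gene was Prkar1b and not Akap1. Array weights ran from 0.3185 for replicate 3 of forskolin with AICAR to 3.4556 for forskolin replicate 2. Replicate 1 of forskolin with AICAR had 0.354 and replicate 2 had 2.8439, so the weighted values of that group rest largely on replicate 2.

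Same-numbered arrays did not deviate together in every pair: the correlation of their deviations from the group means was 0.24, 0.01 and 0.33 for replicates 1, 2 and 3 of forskolin and control, -0.41 to 0.08 for forskolin with AICAR and forskolin, and -0.40 to 0.01 for forskolin with AICAR and control, and 0 of 9 arrays correlated best with its own number. With the replicate number as a block, 0, 1 (Prkar2b, adjusted p = 0.0434) and 0 of the 35 genes were called in the 3 comparisons, and 83, 583 and 874 of all genes. With that block the adjusted p of Akap1 was 0.0529 against forskolin and 0.0682 against control, so neither was called. Nor were Arfgef2 (0.0594), Rapgef2 (0.072) and Gper1 (0.0898) against forskolin, or Gper1 (0.0941) and Cnga1 (0.0513) against control, while Arrdc3 was called in both (0.0336 and 0.0469).

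Of all genes, 138 were called with forskolin against control, but 436 with array weights, 43 without replicate 3 of every group, and 76 to 144 with single arrays left out. The 1017 calls of forskolin with AICAR against forskolin became 5729 with array weights, 496 in the fit of 2 groups, 1820 at an adjusted p under 0.1, 241 without replicate 3 of every group, and 487 to 3324 with single arrays left out. The 1739 calls against control became 6619, 758, 3756 and 377 under the same settings, and 660 to 4741. Of the 85 genes of the further lists, 8 were called with forskolin against control, and 5 without replicate 3 of every group. The 7 against forskolin became 31 with array weights, 4 in the fit of 2 groups, 12 at an adjusted p under 0.1, 3 without replicate 3 of every group, and 4 to 19 with single arrays left out. The 8 against control became 30 with array weights, 15 at an adjusted p under 0.1, 5 without replicate 3 of every group, and 6 to 20. Recomputed differences of the named genes turned sign 3 times, none of them called. Prkar2b between forskolin with AICAR and control (-0.08) was 0.0072 without replicate 3 of every group. Abcc4 in that comparison (-0.03) turned sign under 2 settings. It was 0.0325 after quantile normalization. Without replicate 2 of forskolin with AICAR it was 0.0091, the highest of -0.0522 to 0.0091 with single arrays left out. The cause was not tested. Of 1263 recomputed gene differences 1147 kept their direction and their side of the threshold.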

Other observations

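Many deposited values were identical between arrays. Of the 35 cAMP and PKA genes, 24 (68.6%) had the same value on at least 2 of the 9 arrays and 17 (48.6%) on at least 3, beside 60.8% and 34.6% of all genes. Pde10a was listed at 6.54 on 4 arrays, all 3 forskolin arrays among them, and Pde3a at 5.86 on 5 arrays, all 3 controls among them. Pkia had 4.30 on 5 arrays, and Rapgef3 had 6.49 on 5 arrays spread over the 3 groups. A group SD of 0, as for Pde10a with forskolin, Pde3a in control and Pkia with forskolin, comes from such shared values. Arfgef2 likewise had 1 value on all 3 control arrays.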
